A study of Mus musculus with 9 samples.

Results

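The macrophage and microglia genes are 38 genes of general myeloid function, of border macrophages or of microglia, out of 18194 genes named by a single symbol on the array. They were taken by name: a probe set (a group of probes for 1 transcript) belongs to them when the platform annotation gives it exactly 1 symbol and that symbol is among the 38. All 38 had such a probe set, 63 of the 45101 on the array. Their levels were compared between choroid plexus of apoE-/- mice (4 arrays) and of wild-type mice (5 arrays), both male, strain C57BL, fed normal mouse chow and 78 weeks old. The tissue was cut from frozen nervous system by laser capture microdissection, and 1 whole-genome array was made per sample. ApoE is a lipid-carrying protein, and the design asks what its absence changes in aged choroid plexus. The labels do not give the number of mice or captures behind a sample. The p-values therefore rest on differences among samples that may in part be technical.

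The choroid plexus, the folded tissue in the brain ventricles that secretes cerebrospinal fluid, has its own resident macrophages, in the stroma below the epithelium and on the surface that faces the fluid. These cells are commonly counted among the border macrophages of the brain. Microglia, the macrophages of the brain tissue proper, share with them the growth factor receptor Csf1r, the lineage factor PU.1 and a set of receptors that signal through adaptor proteins. The scavenger and uptake receptors Mrc1 and Lyve1 and the chemokine Pf4 are commonly used to mark border macrophages, and Cx3cr1, P2ry12 and Tmem119 to mark microglia.

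On each array 44.0% to 49.1% of probe sets had a present call, the authors' mark of detection. Apoe was called present on 0 of 4 apoE-/- and 5 of 5 wild-type arrays, at signals of 12.2 to 53.8 and 18252 to 23953.1. The 8 markers of choroid plexus epithelium examined were all detected and tested, and 0 of them passed by limma after adjustment. Wild-type replicate 1 stood apart by its oligodendrocyte markers, whose summed signal was 9205 there, against 2206 to 3181 on the other wild-type arrays. Among apoE-/- arrays replicate 1 also had the highest sum, 3959, against 2098 to 2206 on the others.

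Most of the macrophage and microglia genes were detected. A probe set present on all 9 arrays was found for 24 of the 38 genes, and 31 had one that met the condition for testing, a present call on at least 4 of the 9 arrays. Those 31 genes had 37 tested probe sets, and the other 26 probe sets were not tested. Of these 26, 23 were never called present, and the rest were called once each, Aif1 and Cd163 on 1 apoE-/- array and a second probe set of Ptprc on 1 wild-type array. The 7 genes without a tested probe set were Aif1, Cd14, Cd163, Cx3cr1, Itgam, Lyve1 and Tmem119, and all of them except Aif1 and Cd163 were never called present. Because Cd48 was called present on 3 apoE-/- arrays and 1 wild-type array, it met the condition mainly through the apoE-/- group. Spi1 met it with present calls on 2 of 4 apoE-/- and 5 of 5 wild-type arrays.

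The tested genes lay mostly above 0 in apoE-/- choroid plexus, and 4 passed the test. Lyz2, Ly86, Cd84 and Cd300c2 rose, each by 1 probe set, and 0 of the 37 probe sets fell (limma, Benjamini-Hochberg adjusted over all 21478 tested probe sets). Of all tested probe sets 0.67% were called higher and 1.92% lower. Without wild-type replicate 1 the same 4 genes passed, and the median difference given next was 0.40. A log2 difference above 0 was found for 33 of the 37 probe sets, against 50.2% of all tested probe sets. Each of the 4 genes had only 1 tested probe set, so reading genes by their brightest tested probe set gives the same 4 calls. By that reading 0.794% of all tested genes were called higher and 0.866% lower. By that reading 27 of 31 genes were above 0, against 53.4% of all 11089 tested genes. The median log2 difference was 0.32 over the 31 genes and 0.02 over all tested genes, and 7.87% of all tested genes were above 0.32. Counts and medians over genes that met a detection condition are a description, since a gene detected mainly where it is high has to differ. Without that condition, which lets in signals not called present, the median over genes was 0.40, against 0.03 over all genes. Over all 63 probe sets, a different unit, the median was 0.32, against 0.02 over all 45037 probe sets. Of the 63, 48 were above 0, against 52.2% of all probe sets. A higher signal of these genes in bulk tissue may mean more cells of the type or more RNA per cell, among other readings, and these cannot be told apart here.

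**Figure D1:**
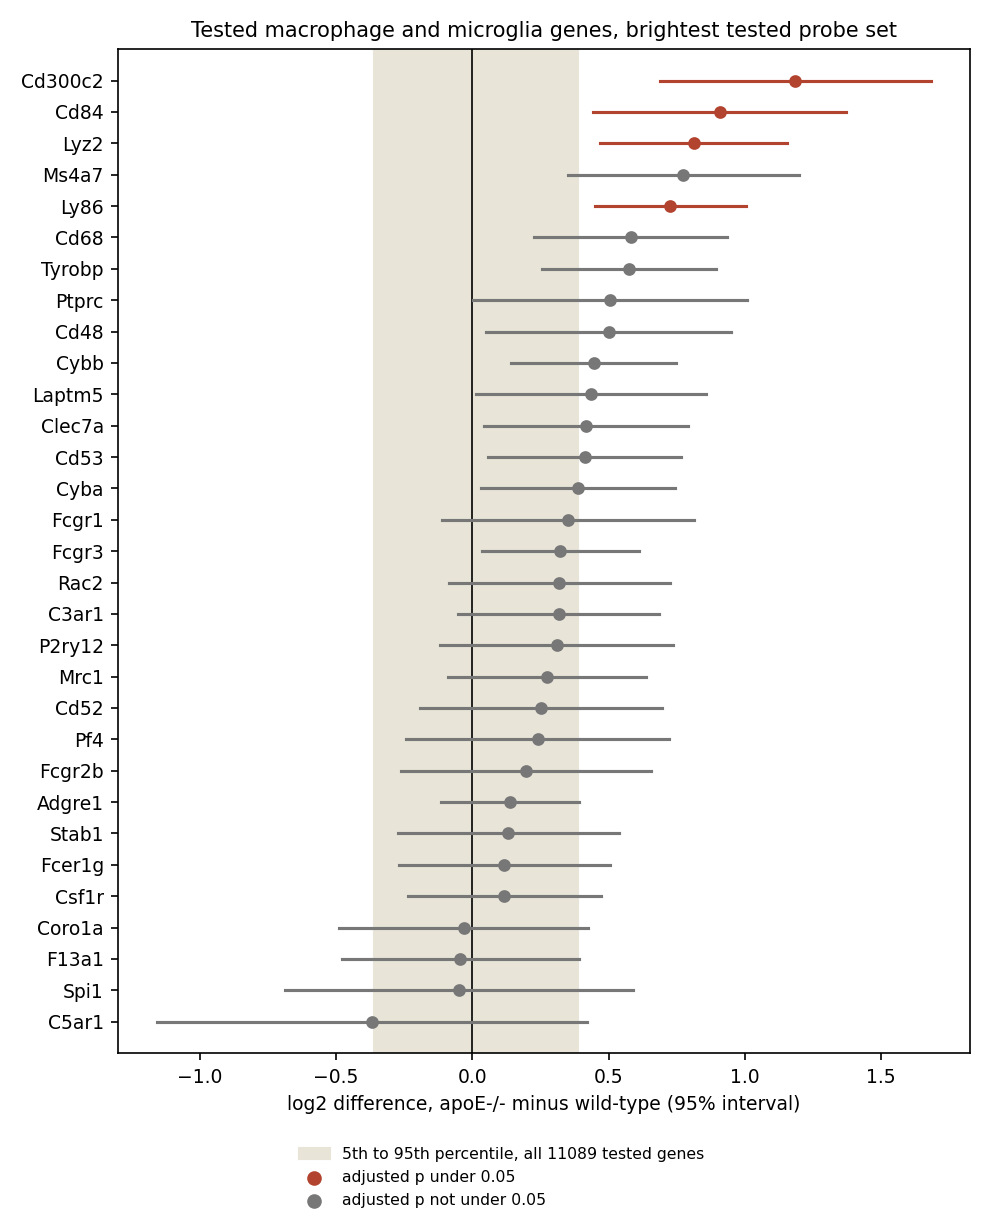
Log2 difference, apoE-/- minus wild-type, with its 95% interval for the brightest tested probe set of each of the 31 tested genes, sorted by size. Cd300c2, Cd84, Lyz2 and Ly86 passed the test, 27 of 31 points lie right of 0, and the band holds the middle of all tested genes from the 5th percentile (-0.36) to the 95th (0.39).

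Ly86, a secreted partner of a receptor that tunes the response to endotoxin, was read by 1 probe set. The signals as deposited were 787, 809, 834 and 670.4 in the apoE-/- group (replicates 1 to 4), against 555, 489, 454, 433 and 388 in wild-type replicates 1 to 5. Every apoE-/- array was above every wild-type array, with a present call on all 9. Ly86 rose 1.66-fold (log2 difference 0.73 ± 0.13, SE, limma adjusted p = 0.00928).

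Lyz2, the lysozyme of macrophages and neutrophils, had signals of 2735, 3259, 3932 and 2098 in apoE-/-, against 1985, 1601, 1829, 1458 and 1622 in wild-type. The groups did not overlap, although apoE-/- replicate 4 lay close to wild-type replicate 1. The rise was 1.76-fold (log2 difference 0.81 ± 0.16, SE, limma adjusted p = 0.0154).

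Cd300c2, an activating receptor of the CD300 family on myeloid cells, had signals of 326, 582, 523 and 272 in apoE-/- and 218, 128, 181, 226 and 140.0 in wild-type. No apoE-/- value was as low as a wild-type one, and the apoE-/- values differed among themselves by more than the wild-type values did. Its log2 difference was 1.19 ± 0.23 (SE, limma adjusted p = 0.0148), the largest among the 37 tested probe sets. Cd84, a self-binding receptor of the SLAM family on leukocytes, had 177, 244, 350 and 169 in apoE-/-, against 136, 103, 98.0, 133 and 118 in wild-type. It rose 1.88-fold (log2 difference 0.91 ± 0.22, SE, limma adjusted p = 0.0406), again without overlap. A second probe set of Cd84 was never called present.

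**Figure D2:**
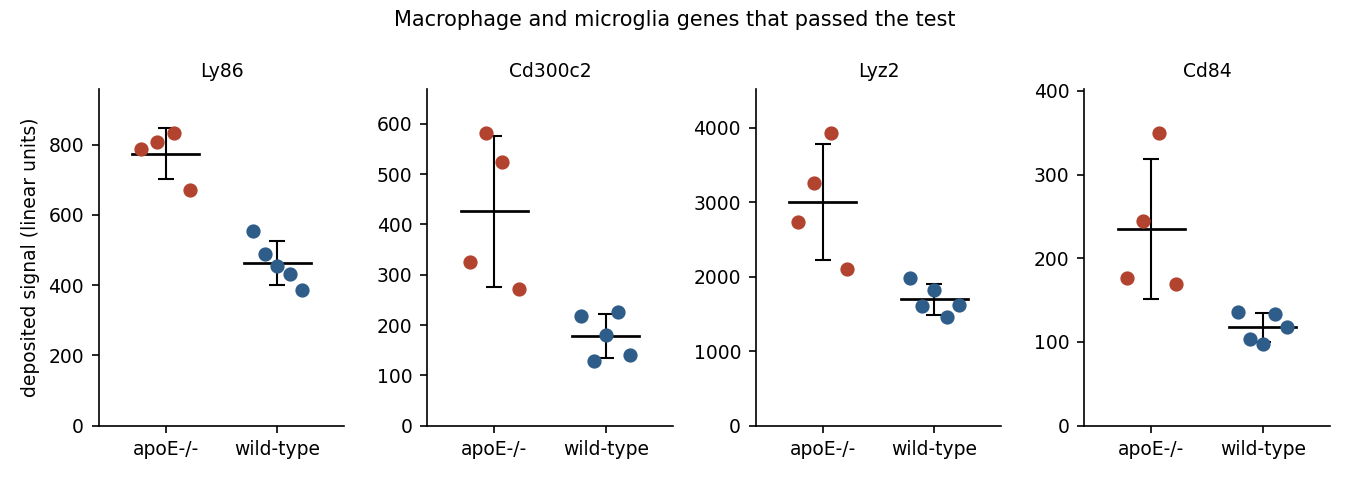
Deposited signal on a linear scale for the 4 genes that passed, apoE-/- arrays left and wild-type arrays right, 1 point per array in replicate order, filled because every array was called present, with mean and SD. In each panel the lowest apoE-/- point lies above the highest wild-type point.

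These 4 calls differed in how they held when settings or arrays were changed. The call of Ly86 held in all 17 other fits, those of Lyz2 and Cd300c2 in 15, and that of Cd84 in 7. Without apoE-/- replicate 3 only Ly86 passed, with adjusted p of 0.0531 for Lyz2 and 0.0631 for Cd300c2. Leaving out apoE-/- replicates 1 and 2 or wild-type replicates 2 to 5, each in turn, also ended the call of Cd84, and its adjusted p reached 0.145 without apoE-/- replicate 3. Without apoE-/- replicate 4 the number called was 7, with Ms4a7, Cd68 and Tyrobp added. Of all tested probe sets, 1.24% were called in either direction without apoE-/- replicate 3 and 3.73% without replicate 4, beside 2.59% with all arrays.

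The upstream sequences of these 4 genes are shown because they are the members that rose, and PU.1 (the product of Spi1) is known to act at promoters of many myeloid genes. Each run gives the 250 bases before the gene's annotated start, 5′ to 3′ on the gene's strand, from RefSeq annotation on build GRCm38.p6. Capitals mark GAGGAA, the classical PU box, and AGGAAGT, a longer string with the core shared by ETS factors such as PU.1. Both were searched on both strands, and they can overlap each other.
Ly86, chr13:37345095-37345344, plus strand: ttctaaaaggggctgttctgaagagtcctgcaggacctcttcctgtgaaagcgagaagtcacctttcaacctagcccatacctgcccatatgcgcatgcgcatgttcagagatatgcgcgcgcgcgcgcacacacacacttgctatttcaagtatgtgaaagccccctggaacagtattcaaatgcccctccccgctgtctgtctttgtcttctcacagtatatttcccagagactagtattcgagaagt
Lyz2, chr10:117282273-117282522, minus strand: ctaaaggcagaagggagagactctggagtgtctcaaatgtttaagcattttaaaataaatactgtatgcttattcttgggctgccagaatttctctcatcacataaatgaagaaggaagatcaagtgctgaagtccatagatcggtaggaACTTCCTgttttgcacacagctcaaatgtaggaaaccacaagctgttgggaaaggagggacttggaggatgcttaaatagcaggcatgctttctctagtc
Cd300c2, chr11:115001881-115002130, minus strand: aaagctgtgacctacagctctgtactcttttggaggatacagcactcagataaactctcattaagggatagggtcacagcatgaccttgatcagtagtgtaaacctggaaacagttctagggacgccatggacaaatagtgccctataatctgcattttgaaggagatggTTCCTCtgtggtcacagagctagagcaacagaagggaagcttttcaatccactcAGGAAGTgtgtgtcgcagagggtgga
Cd84, chr1:171839447-171839696, plus strand: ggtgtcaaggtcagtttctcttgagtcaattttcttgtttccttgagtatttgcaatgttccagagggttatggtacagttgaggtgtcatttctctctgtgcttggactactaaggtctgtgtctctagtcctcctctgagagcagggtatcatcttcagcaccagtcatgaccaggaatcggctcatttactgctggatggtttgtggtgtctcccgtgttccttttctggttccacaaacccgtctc

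Cd300c2 held both strings, GAGGAA on the opposite strand, Lyz2 held AGGAAGT on its opposite strand, and neither was in the windows of Ly86 and Cd84. The table of starts covered 29 of the 38 genes. GAGGAA was in the windows of 14 of the 29 (48.3%), against 25.9% of 27025 genes with a start in the table. AGGAAGT was in 9 of the 29 (31.0%), against 8.8% of those genes, and 6 genes held both. Such a match is a description of letters and not a binding site. These strings were picked after several were tried, so the excess over all genes is a selected contrast, and it was not tested.

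Just short of the threshold were genes of several roles. Ms4a7, a membrane protein common on border macrophages, had signals of 436, 468, 711 and 397 in apoE-/-, against 315, 299, 216, 373 and 222 in wild-type, without overlap. Its log2 difference was 0.77 ± 0.20 (SE, limma adjusted p = 0.0548), and the gene passed in 3 other fits, with adjusted p of 0.0466 on all arrays without quantile normalization, 0.0388 with apoE-/- replicate 4 left out and 0.0498 with wild-type replicate 4 left out. Tyrobp, the adaptor DAP12, whose ITAM motif passes on signals of receptors such as Trem2, had 994, 899, 1325 and 784 in apoE-/-, against 737, 691, 679, 627 and 560.4 in wild-type. Here too the groups did not overlap, with a log2 difference of 0.57 ± 0.15 (SE, limma adjusted p = 0.0577). Cd68, a glycoprotein of lysosomes used as a general macrophage marker, had 368, 352, 419 and 254 in apoE-/-, against 196, 234, 266, 232 and 193 in wild-type. Only apoE-/- replicate 4 lay within the wild-type range, and the log2 difference was 0.58 ± 0.17 (SE, limma adjusted p = 0.0840). Tyrobp and Cd68 passed once apoE-/- replicate 4 was left out, with adjusted p of 0.0244 and 0.0293.

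In all, 20 of the 37 probe sets had an unadjusted limma p under 0.05, higher in apoE-/-, and 0 had one lower. Among all tested probe sets 7.23% were at an unadjusted p under 0.05 and higher. After normalization 9 of the 37 probe sets were higher in apoE-/- without overlap between the groups, against 2.72% of all tested probe sets.

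Csf1r and Spi1, the receptor that keeps macrophages alive and the transcription factor that specifies them, did not pass. The brightest probe set of Csf1r had signals of 3958, 3406, 3481 and 2880 in apoE-/-, against 4795, 2821, 3298, 3258 and 2305 in wild-type. Wild-type replicate 1 was the highest of the 9 and wild-type replicate 5 the lowest, and the log2 difference was 0.12 ± 0.17 (SE). Its other probe sets read 0.37 and 0.41, with limma adjusted p of 0.261 and 0.187. The log2 difference of Spi1 was -0.05 ± 0.30 (SE), with a 95% interval of -0.69 to 0.59. The sign of Spi1 changed without quantile normalization and with the array left out.

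Fcer1g, the Fc receptors and Clec7a did not pass, while Cd300c2, described above, did. Fcer1g, the common chain of several Fc receptors, had signals of 618, 563, 809.9 and 440.3 in apoE-/-, against 722, 455, 592, 521 and 441 in wild-type. These ranges overlapped nearly in full, and the log2 difference was 0.12 ± 0.18 (SE). Of the receptors for IgG, Fcgr3 read 0.32, Fcgr1 0.35, and Fcgr2b, the inhibitory one, 0.20 and 0.42 by its tested probe sets, with limma adjusted p of 0.244 to 0.694. The brightest probe set of Fcgr2b was never called present, at signals of 709, 1189.5, 1096 and 749.8 in apoE-/- and 640.1, 737, 439, 727 and 431 in wild-type. Clec7a, the lectin dectin-1 that binds fungal glucans, had 326, 419, 543 and 306 in apoE-/-, against 339, 309, 261, 293 and 233 in wild-type (log2 difference 0.42 ± 0.17, SE, limma adjusted p = 0.246).

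Receptors for complement fragments did not pass either. C3ar1, the receptor for C3a, had log2 differences of 0.32 and 0.63 by its tested probe sets, with limma adjusted p of 0.385 and 0.195. A further probe set of C3ar1 was never called present, although its signals of 366, 374, 349 and 292 in apoE-/- all lay above those of 233, 203, 240.2, 262 and 229 in wild-type. C5ar1, the receptor for C5a, was the lowest of the 31 genes, at -0.37 ± 0.37 (SE), from signals of 32.3, 29.5, 28.4 and 64.7 in apoE-/- and 51.8, 33.3, 49.8, 42.3 and 61.6 in wild-type. Another probe set of C5ar1 was never called present and had a higher median in apoE-/-, 112 against 72.7. Itgam, the integrin chain of complement receptor 3, was not detected, at 24.9 to 48.6 in apoE-/- and 32.0 to 57.3 in wild-type.

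Cd14, the surface receptor for endotoxin, was never called present either, with signals of 339 to 477 in apoE-/- and 248 to 332 in wild-type. Aif1, the calcium-binding protein of macrophages and microglia known as IBA1, had 307, 289, 377 and 307 in apoE-/-, against 234, 223, 221, 238 and 207 in wild-type. Both were without overlap in deposited signal, as were Tmem119 and the undetected C3ar1 probe set, and no fold is given for a signal not called present. In all, 17 of the 26 untested probe sets had a higher median in apoE-/-. Neither this share nor that of probe sets without overlap was computed over all untested probe sets. These counts therefore only describe signals not called present.

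The general leukocyte surface genes overlapped between the groups. Adgre1, the marker known as F4/80, had 809, 813, 810.4 and 784 in apoE-/-, against 868, 617, 683, 801 and 679 in wild-type (log2 difference 0.14 ± 0.12, SE, limma adjusted p = 0.598). Its 95% interval ended at 0.39. Ptprc, the phosphatase CD45 of all leukocytes, read 0.50, the tetraspanin Cd53 0.41 and the short surface glycoprotein Cd52 0.25, with limma adjusted p of 0.226 to 0.582. Cd48, the other SLAM family member here, read 0.50 ± 0.21 (SE, limma adjusted p = 0.250).

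Subunits of the phagocyte NADPH oxidase, which makes superoxide, were all above 0 without passing. Cybb, its catalytic subunit, had signals of 336, 459.8, 459 and 346 in apoE-/-, against 334, 269, 277, 254 and 294 in wild-type by its brightest tested probe set, and its other tested probe set likewise had no overlap. Their log2 differences were 0.44 ± 0.14 and 0.52 ± 0.15 (SE, limma adjusted p = 0.123 and 0.0872). Cyba, its membrane partner, had 575, 377, 485 and 436 in apoE-/-, against 469.9, 304, 308, 296 and 377 in wild-type (log2 difference 0.39 ± 0.17, SE, limma adjusted p = 0.261). Rac2, the GTPase that activates the complex in blood cells, read 0.32, and Laptm5, a lysosomal membrane protein of blood cells, 0.43 and 0.34. Coro1a, an actin-binding protein of leukocytes, read -0.03 ± 0.21 (SE), and its sign changed with the scaling and with the array left out.

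Border-macrophage and microglial genes could be compared for only some of the markers. On the border side, Mrc1, the mannose receptor, had signals of 393, 420.2, 325 and 494 in apoE-/-, against 397, 307, 286, 405 and 258 in wild-type. Pf4 had 679, 486, 446 and 631 in apoE-/-, against 839, 381, 387, 436 and 369 in wild-type. Both were called present on all 9 arrays and overlapped between the groups, and the highest Pf4 value was that of wild-type replicate 1. The 2 probe sets of Lyve1 were never called present, at 39.6 to 65.6 and 3.0 to 12.6 in apoE-/-, against 21 to 102 and 3.8 to 25.6 in wild-type.

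On the microglial side, P2ry12, a receptor for ADP, had signals of 125, 132, 177 and 104 in apoE-/-, against 93.7, 111, 92.5, 113 and 103 in wild-type, with present calls on all 9 arrays. Its apoE-/- replicate 4 lay within the wild-type range, and the other apoE-/- arrays lay above it. Tmem119 was never called present, although its signals of 386, 417, 562 and 454 in apoE-/- lay above those of 297, 287, 328, 284 and 333 in wild-type. Cx3cr1, the receptor for fractalkine, was not detected by either probe set. The brighter read 93.2, 171, 22.1 and 80.6 in apoE-/-, against 166, 144, 128, 187 and 144 in wild-type, and the dimmer read 3.0 to 11.7 and 6.1 to 73.9.

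The 3 markers that could be tested had similar log2 differences, and 0 of them passed. Mrc1 read 0.27 ± 0.17 (95% interval -0.09 to 0.64, limma adjusted p = 0.452). Pf4 read 0.24 ± 0.22 (-0.24 to 0.72, limma adjusted p = 0.637). P2ry12 read 0.31 ± 0.20 (-0.12 to 0.74, limma adjusted p = 0.471). Each interval spans 0, so these values show neither that the border and microglial genes moved alike nor that they did not, and the difference between the 2 kinds of gene was not tested. Without wild-type replicate 1 the log2 difference of Pf4 was 0.46, that of Mrc1 0.34 and that of P2ry12 0.28.

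**Figure D3:**
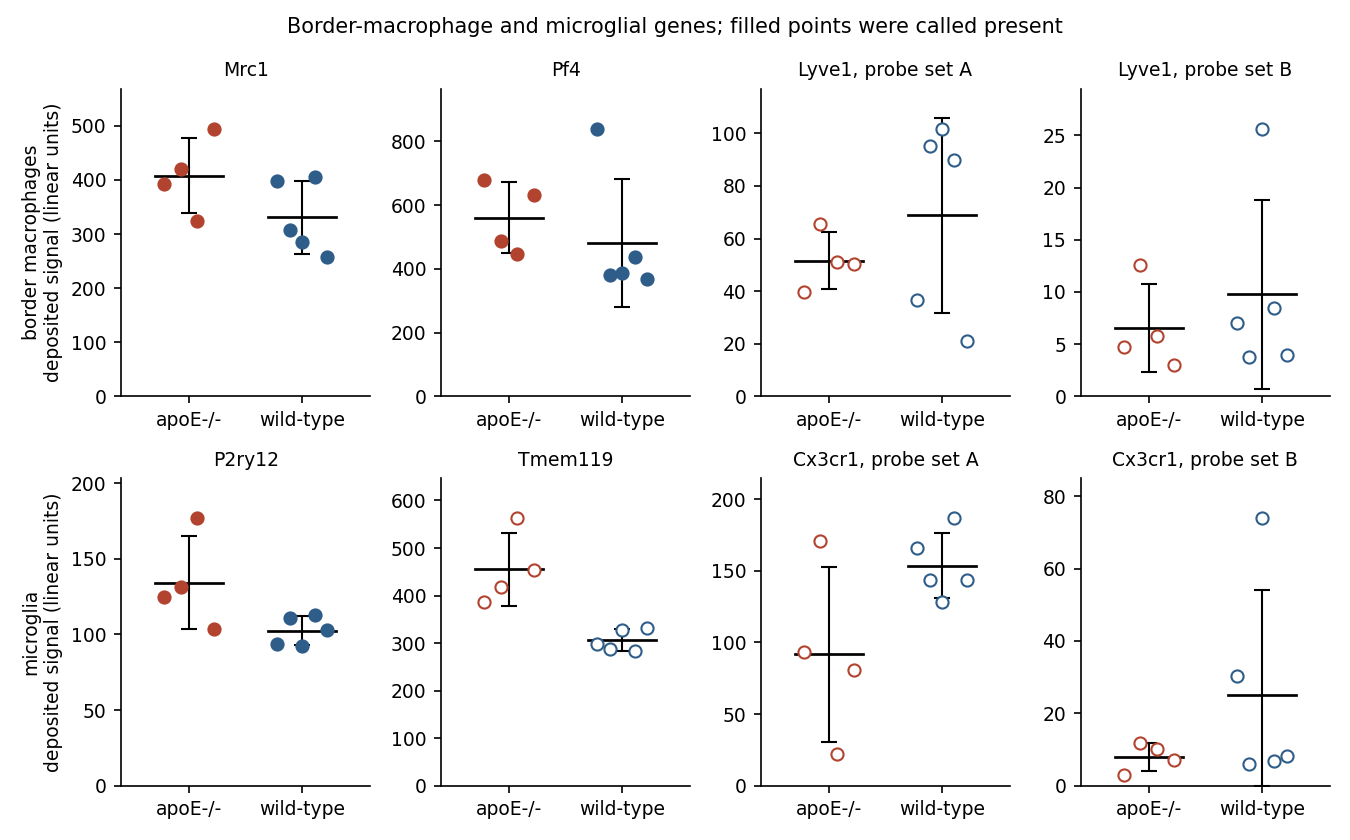
Deposited signal on a linear scale for the border-macrophage genes Mrc1, Pf4 and Lyve1 (top) and the microglial genes P2ry12, Tmem119 and Cx3cr1 (bottom), apoE-/- left and wild-type right, with mean and SD (bars stop at 0), filled where the array was called present and open where not. Mrc1, Pf4 and P2ry12 are filled on all 9 arrays, and Lyve1, Tmem119 and Cx3cr1 are open throughout.

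Other genes of border macrophages were mixed. Of the 7 listed border genes 5 were tested, with log2 differences from -0.04 for F13a1, the catalytic chain of clotting factor XIII, to 0.77 for Ms4a7. The sign of F13a1 changed without quantile normalization. Stab1, a scavenger receptor, read 0.13 ± 0.19 (SE, limma adjusted p = 0.775). Cd163, the scavenger receptor for haemoglobin, was called present on 1 apoE-/- array, at 46.8 to 78.5 in apoE-/- and 4.7 to 61.8 in wild-type. A further list of 8 border-macrophage genes had 3 tested, Colec12, Dab2 and Folr2, at 0.03, -0.02 and -0.10, and 0 passed. A further list of 7 microglial genes had 4 tested and 0 passing, Fcrls at 0.48 (limma adjusted p = 0.183), P2ry13 at 0.14, Olfml3 at 0.13 and Sall1 at -0.08. The summed deposited signal of this list, tested or not, was 1226 to 1442 in apoE-/- and 986 to 1212 in wild-type, without overlap. That of the further border list overlapped, at 5181 to 5722 and 5048 to 5986. Most of this border sum was Dab2, at 3958 to 4272 in apoE-/- and 3669 to 4553 in wild-type. Of its 8 genes 4 were never called present. The sums therefore do not show whether border and microglial genes differ. The difference between these lists was not tested.

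The arrays differed within each group, and some arrays stood at the ends for many of these genes. Of the 31 tested genes, 19 were highest of all 9 arrays on apoE-/- replicate 3, and 17 were lowest within the apoE-/- group on replicate 4. Among wild-type arrays 19 genes were highest on replicate 1, and 14 were lowest on replicate 5. The median over the 31 genes, as log2 signal minus the wild-type mean, was 0.33, 0.22, 0.64 and 0.28 on apoE-/- replicates 1 to 4, against 0.25, -0.04, -0.04, 0.04 and -0.25 on wild-type replicates 1 to 5. These array medians overlap, wild-type replicate 1 lying above apoE-/- replicate 2.

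**Figure D4:**
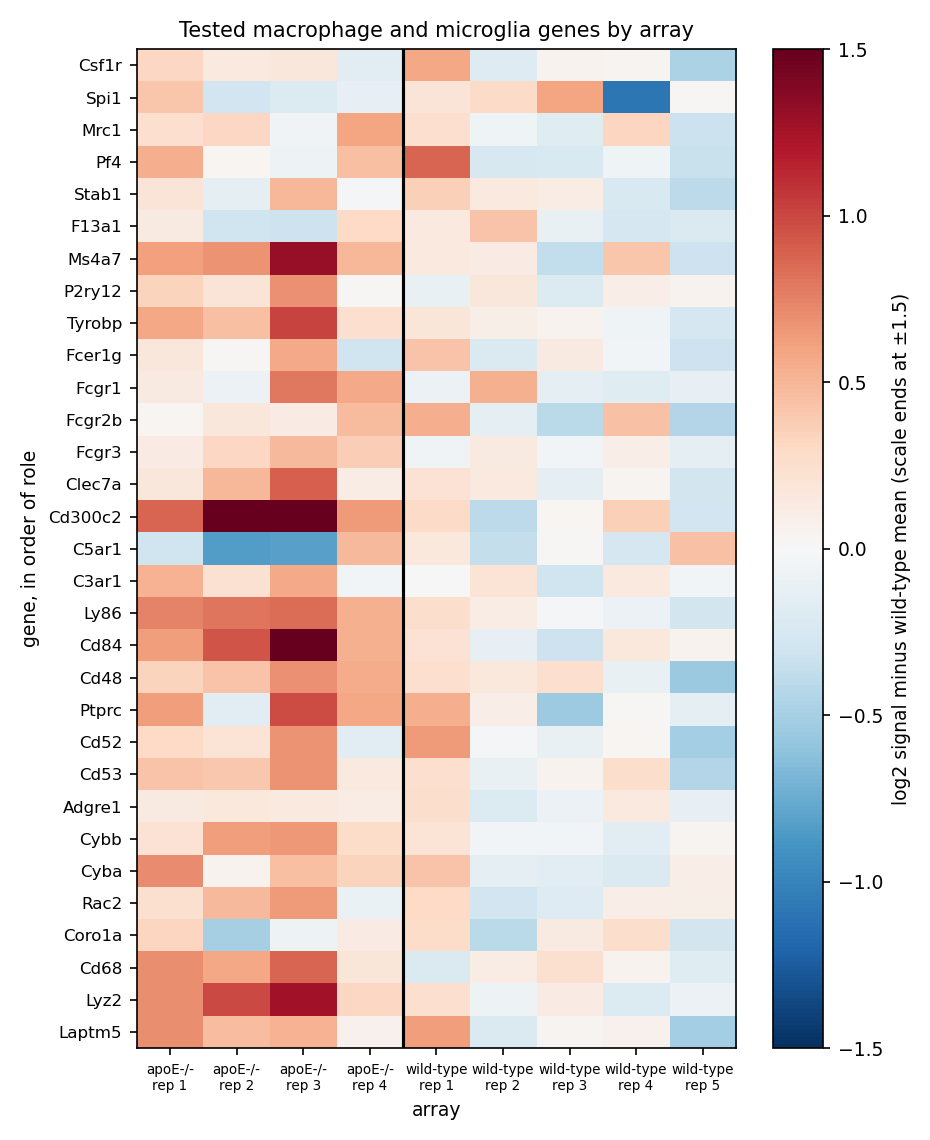
Log2 signal minus the wild-type mean for the 31 tested genes (rows, in order of role) on the 4 apoE-/- arrays (left of the line) and the 5 wild-type arrays (right), red higher and blue lower, with colours ending at 1.5 in either direction. Cd300c2, Cd84, Lyz2 and Ly86 are red on every apoE-/- array, replicate 3 is the reddest apoE-/- column, and C5ar1 is blue on most apoE-/- arrays.

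Markers of other cell types varied between arrays as well, and their part in these results was not tested. Of the oligodendrocyte markers, Mag and Mog were never called present on any array. Wild-type replicate 1, which had the highest oligodendrocyte sum, also had the highest sum of 7 neuron markers, 1871, against 990.3 to 1330.1 in apoE-/- and 1047.5 to 1347 on the other wild-type arrays. Among markers of other blood cells, the T cell genes Cd3d, Cd3e and Cd3g were never called present, nor were Cd79a and Cd79b of B cells or Camp, Elane and Mpo of neutrophils. The summed T and NK cell signal was 917 to 1305 in apoE-/- and 814 to 1061 in wild-type. Cd8a read 0.44 by its brightest tested probe set (limma adjusted p = 0.131) and -0.05 by another (limma adjusted p = 0.958). Summed neutrophil signal was 488 to 728 in apoE-/- and 451 to 869 in wild-type, and S100a8, a calcium-binding protein of neutrophils and monocytes, read -0.86 (limma adjusted p = 0.317). For B and plasma cells the sums were 648 to 1198 in apoE-/- and 673 to 993 in wild-type. Dendritic cell markers summed to 846 to 1258 in apoE-/- and 717 to 991 in wild-type, and mast cell markers to 861 to 1217 and 896 to 1111. The median log2 difference was 0.24 over 4 tested astrocyte markers and 0.25 over 5 tested endothelial markers, with 0 passing in either list. It was 0.02 for epithelial, -0.05 for fibroblast and mural cell, -0.25 for neuron and -0.41 for oligodendrocyte markers.

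Of the 13 lists of markers of other cells, only monocyte markers had sums without overlap, and most of that sum was Plac8. Their summed signal, over 3 genes, was 477 to 697 in apoE-/- and 307 to 404 in wild-type, without overlap. Plac8, a gene of monocytes and other leukocytes, had 294, 368, 507 and 291 in apoE-/-, against 190.5, 226, 209, 223 and 184 in wild-type, and rose 1.69-fold (limma adjusted p = 0.0320). The monocyte chemokine receptor Ccr2 read -0.04, with overlapping signals of 67.7 to 107.8 in apoE-/- and 71.4 to 138.3 in wild-type. Chil3 was never called present. The separation of the sums therefore does not show that monocyte markers rose as a set.

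Genes around these receptors were measured from lists outside the 38, and 0 of the 22 tested in these 7 lists passed by limma after adjustment. Of the ligands, Cx3cl1, the partner of Cx3cr1, was the 1 gene tested of 5 and read 0.23 (limma adjusted p = 0.346). Of 8 myeloid transcription factors 5 were tested, with Irf5 at 0.60 (limma adjusted p = 0.137) and Cebpb at 0.25 having the smallest p by brightest probe set. A dimmer probe set of Maf read 0.25 with a smaller p than Cebpb (limma adjusted p = 0.354), and its brightest read -0.01. Of 8 partner receptors of the ITAM adaptors 3 were tested, Pilrb1 at 0.26 and Cd300ld at 0.10 first among them, while Trem2 was never called present. Below the adaptors 4 of 11 genes were tested, among them the exchange factor Vav1 at 0.43 (limma adjusted p = 0.182) and Fgr, a kinase of the Src family, at -0.12. Ncf1, a cytosolic oxidase subunit, read 0.53 (limma adjusted p = 0.171), and Rac1 read 0.24 by its brightest probe set.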

How the data were processed

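Total RNA of laser-captured choroid plexus, 4 apoE-/- and 5 wild-type samples, was read on 1 array each. Each probe set has, per array, a linear signal intensity deposited by the authors with a present, marginal or absent call. GCOS 1.4 made them, per the submitters' processing notes, which name no background or summary step. With 2% of probe sets trimmed from either end, the deposited intensity averaged 500.0 on all arrays. The other deposited table held the same values, all 405909 of them. Deposited detection p-values, in 9 columns, were not used because some are above 1, and the detection calls, which carry no sample name of their own, were taken from the block of columns each sample's title heads.

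Intensities were taken to log2 and quantile normalized, since array medians ranged over 0.214, above a limit of 0.1. Probe sets other than 64 controls with a present call on at least 4 of 9 arrays were fitted with limma 3.58.1 in R 4.3.3 (genotype alone as a term, prior variance with a mean trend, two-sided tests, Benjamini-Hochberg threshold 0.05). Printed signals per array are as deposited, and log2 differences are apoE-/- minus wild-type after normalization. The number of arrays limits the precision. Symbols came from the platform annotation, updated by gene ID. Of the probe sets, 34958 had 1 symbol, 932 had several and were not used, and 9211 were not listed.

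The 38 genes, the other lists and the rule for named genes were chosen with earlier results of these data known. Values per array are given for genes that passed, for the border and microglial markers and for the brightest gene of each role, and those of Fcer1g, Ms4a7, Cd68, C5ar1, Cybb and Plac8 were added after their values were seen. Promoter strings were picked after several were tried. This fit was also run on simulated data made from the means and spreads of these arrays, and the outcome is not given here. Alternatives were other scalings and filters, an offset of 50, other variance settings, replicate numbers as a block and each array left out.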

Additional observations from a re-analysis of the deposited data

Results flagged for a closer look

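Values in 2 of the 74 combinations of probe set and group examined stood apart from the rest of their group, where chance gives about 1 in 20. Wild-type replicate 1 had the highest Pf4 signal among the wild-type arrays, 839 against 436 in the next, and the gap was 0.776 of the range of the 5 normalized log2 values. Without that array the log2 difference of Pf4 was 0.46 (limma adjusted p = 0.159). Wild-type replicate 2 had the highest Fcgr1 signal of its group, 216 against 146 in the next, a gap of 0.86 of the range.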

How the results depend on the processing

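Over the 17 other fits, 0 macrophage and microglia probe sets were called lower in any, and the median log2 difference of the tested genes lay between 0.26 and 0.41, beside 0.32. Of all tested probe sets, 81 were called higher and 248 lower without the detection condition, 57 and 252 without the mean-variance trend, and 372 and 706 with array weights, beside 144 and 412. With 1 array left out these counts ranged from 55 to 246 higher and from 204 to 540 lower. Among the macrophage and microglia probe sets, array weights gave 7 calls, adding Tyrobp, Cd68 and Csf1r, and leaving out 1 array gave 1 to 7. Csf1r was called there only by its dimmest probe set (limma adjusted p = 0.0402), while its brightest had an adjusted p of 0.439. Cybb, by the dimmer of its tested probe sets, was added and Cd84 and Lyz2 were lost without the mean-variance trend, with adjusted p of 0.0380, 0.0573 and 0.0600. The number that passed changed most without apoE-/- replicates 3 and 4, to 1 and 7. Calls over all tested probe sets moved the same way, to 1.24% and 3.73% in either direction, beside 2.59% with all arrays. The causes were not tested.

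Replicate numbers are shared by the groups in the titles. Deviations of same-numbered arrays correlated at 0.160, -0.0150, 0.0307 and 0.00803. The wild-type array that correlated best with apoE-/- replicate 1 was replicate 1. For apoE-/- replicates 2, 3 and 4 it was wild-type replicate 1, 2 and 5. The numbers were not taken to pair the samples, although replicate 1 did match, and the cause of that match was not tested. With the replicate block, 2 macrophage and microglia probe sets passed, Ly86 and Lyz2, with 176 higher and 421 lower among all, and Csf1r by its brightest probe set read -0.000592.

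Signs of 5 differences near 0 changed. Without quantile normalization Spi1 read 0.0150, F13a1 0.0176 and Coro1a 0.0448, and with scaling to the 75th percentile Coro1a read 0.0203. Spi1 read 0.20 with array weights. With 1 array left out, the ranges were -0.32 to 0.10 for Spi1, -0.16 to 0.0624 for F13a1, -0.15 to 0.12 for Coro1a, -0.0324 to 0.25 for Fcer1g and -0.000215 to 0.26 for Csf1r. Signals not called present limit what can be said of 7 genes.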
